A study of Mus musculus with 9 samples.

Results

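The adhesion G protein-coupled receptors (adhesion GPCRs) were followed in neural stem cells (NSCs) from the subventricular zone of adult mice. Members were the genes of the deposited expression table whose Ensembl identifier has a mouse symbol of Adgr, then a letter from a to g, l or v, then a number. This rule took 28 of 55704 genes, of which 27 are protein-coding and 1, Adgrd2-ps, is a pseudogene. The 3 cadherin-type receptors Celsr1, Celsr2 and Celsr3 belong to the same receptor family but carry other symbols, so they are described apart from the members.

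An adhesion GPCR joins a long extracellular part, which binds proteins on neighbouring cells or in the matrix, to a membrane-spanning part that signals through G proteins. In most members the chain cuts itself at a domain next to the membrane, and the stretch left behind can act as a built-in agonist once the outer part is pulled away. Members in the nervous system are known for roles in progenitor behaviour, myelination and synapse formation.

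Bulk RNA-seq covered 9 libraries in 3 groups of 3, all of C57BL/6 cells that had been passaged as floating cultures and then attached to a coated dish. The bFGF/EGF-treated NSCs were in medium with bFGF and EGF at 20 ng/mL each and were collected at day 0. The bFGF/BMP4-treated NSCs (bFGF and BMP4, 20 ng/mL each) and the BMP4-treated NSCs (BMP4 alone, 20 ng/mL) were collected at day 6, so their difference from the bFGF/EGF-treated NSCs includes the time in culture, and only the comparison of both BMP4 groups is at a matched time. One isolation pooled the cells of 2 female and 2 male mice aged 8 to 9 weeks, and the labels call the 3 libraries of a group biological replicas without saying whether each came from its own isolation. The p-values below therefore measure the spread between these libraries. In bulk RNA, fewer cells of a type and less RNA per cell cannot be told apart.

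Whole fragment numbers could be found behind the FPKM values (fragment numbers scaled by gene length and library size), and 15894014 to 17421181 fragments per library lay on genes. Libraries of one group were closer to each other (Pearson r over genes of 0.95 to 0.964) than to any library of another group (at most 0.915). All 7 markers chosen for neural stem cells were detected in each group, and their summed FPKM was 1705 to 1814 with bFGF/EGF, 704 to 806 with bFGF/BMP4 and 1497 to 1941 with BMP4 alone. They did not move together. Of the 7, 1 was higher and 3 lower in bFGF/BMP4 vs bFGF/EGF, 1 and 1 in BMP4 vs bFGF/EGF, and 3 and 0 in BMP4 vs bFGF/BMP4. The means in the 3 groups were 151, 3.55 and 15.8 FPKM for Nes and 1.44, 26.9 and 7.64 FPKM for Hes5. Markers of other cells moved with the groups too. The 6 astrocyte markers summed to 178 to 242, 593 to 700 and 1460 to 1501 FPKM, and 5 of the 6 were higher and 1 (Aldh1l1) lower than in bFGF/EGF with either BMP4 treatment, while 4 were higher and 2 lower in BMP4 vs bFGF/BMP4. The 6 neuron and neuroblast markers summed to 72.4 to 88.1, 47.4 to 53.2 and 142 to 213 FPKM. Of the 5 tested, 3 were higher and 1 lower in BMP4 vs bFGF/BMP4. The rise of the sum was mostly Tubb3 (means 20.3, 17 and 145 FPKM), while Map2 had means of 56.2, 30.5 and 34.1 FPKM. The 5 oligodendrocyte precursor markers summed to 1549 to 2249, 1309 to 1792 and 212 to 419 FPKM, carried by Olig1 and Olig2, while Sox10 was at 0 in both BMP4 groups. Their part in the receptor results was not tested.

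Expression of the family was carried by few members. Of the 28, 12 reached a group mean of at least 1 FPKM, 15 had a mean of at least 0.1 FPKM over all libraries and were tested, and 13 were not tested. Close to this limit were Adgrf2 (mean 0.203 FPKM), which was tested, and Adgrf4 (0.0851 FPKM), which was not. The summed FPKM of all members was 238 to 291 with bFGF/EGF, 446 to 604 with bFGF/BMP4 and 191 to 275 with BMP4 alone. Thus every bFGF/BMP4 library was above every other library, and the other groups overlapped. Adgrg1 alone made up 39.1 to 42.3% of this sum with bFGF/EGF, 58.2 to 65.1% with bFGF/BMP4 and 48.5 to 54.2% with BMP4 alone.

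**Figure D1:**
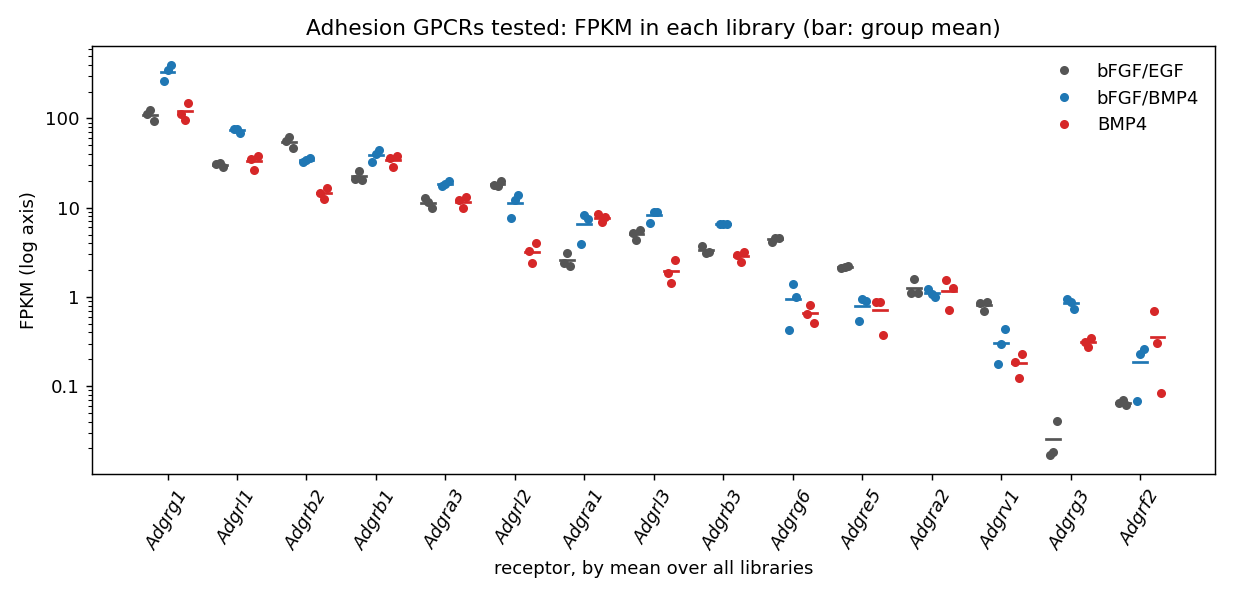
FPKM (log axis) of the 15 tested adhesion GPCRs in each of the 9 libraries, ordered by mean, with each point 1 library and each bar the mean of the 3 libraries of a group. Adgrg1 was highest in every group, and its 3 bFGF/BMP4 libraries (260 to 393 FPKM) sat above all others.

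A receptor is called higher or lower where limma on log2(FPKM + 0.1), fitted over all genes, gave an adjusted p of 0.05 or less with a fold change of 2 or more; on this scale the change of genes with low FPKM is understated. In bFGF/BMP4 vs bFGF/EGF, 4 of the 15 tested members were higher and 3 lower, where 16.5% of all genes tested were higher and 14.1% lower. The higher ones were Adgrg3, Adgrg1, Adgrl1 and Adgra1, and the lower ones Adgrg6, Adgre5 and Adgrv1. In BMP4 vs bFGF/EGF, 2 members were higher (Adgrg3 and Adgra1) and 6 lower (Adgrg6, Adgrl2, Adgrb2, Adgrv1, Adgre5 and Adgrl3), where 21.3% of all genes were higher and 15.4% lower. In BMP4 vs bFGF/BMP4, limma called 0 members higher and 7 lower (Adgrl3, Adgrl2, Adgrg1, Adgrb2, Adgrg3, Adgrb3 and Adgrl1), where 8.41% of all genes were higher and 5.14% lower. At an unadjusted p of 0.05 as well as by limma-voom on the fragment numbers, 0 of the tested members were higher in this comparison. By the adjusted p-value alone, the members numbered 8 higher and 5 lower, 3 higher and 6 lower, and 0 higher and 8 lower in the 3 comparisons, the eighth of the last being Adgra3. Of all genes, 25% were higher and 23.6% lower by this rule in the first, 29.6% and 25.3% in the second, and 12.2% and 8.89% in the third comparison. The median log2 fold change of the tested members was 0.71, -0.15 and -0.68, beside 0.06, 0.10 and 0.00 for all genes. Any 2 of the 3 comparisons share the libraries of 1 group, so their calls are not independent. The 15 tested members passed a limit on their level, so these counts are not over all members.

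**Figure D2:**
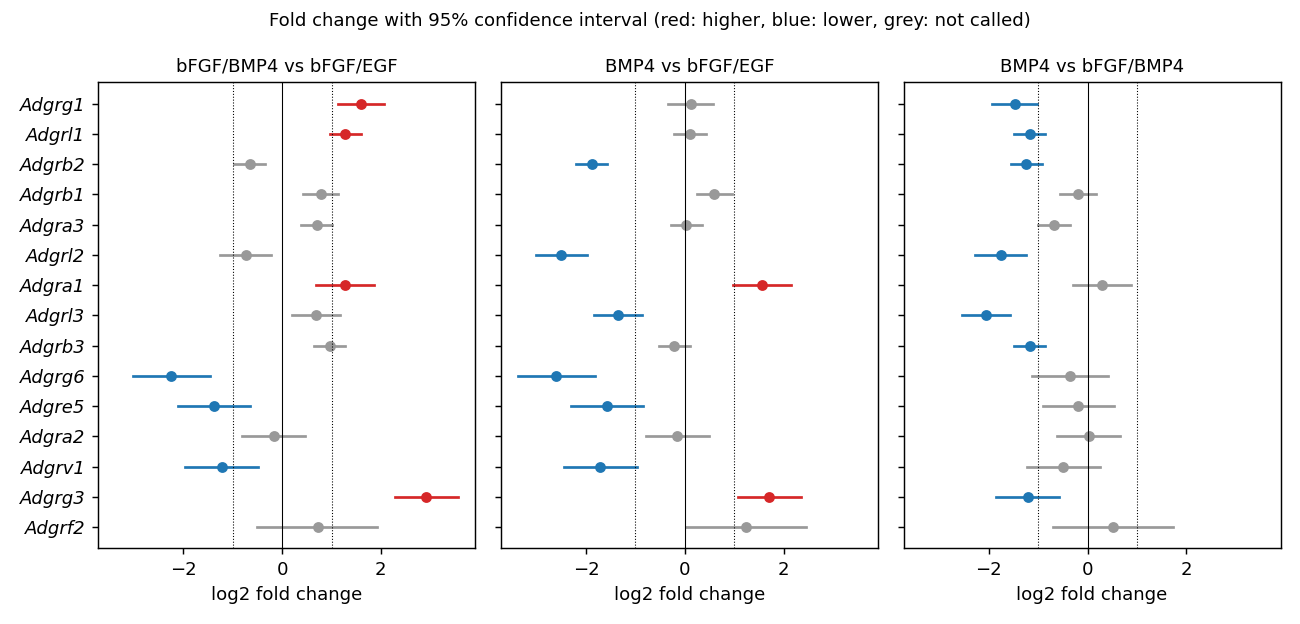
Log2 fold change, on the log2(FPKM + 0.1) scale, of the 15 tested adhesion GPCRs in the 3 comparisons, with points for the estimate, lines for the 95% confidence interval, dotted lines at a fold change of 2 and colours for the call. All 7 called members in BMP4 vs bFGF/BMP4 were on the lower side, with estimates from -1.17 to -2.06.

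The promoters of 4 receptors are shown because they had the highest level (Adgrg1) or the largest change in 1 of the comparisons (Adgrg3, Adgrg6 and Adgrl3). Each run is the 250 bases before a RefSeq start (assembly GRCm38.p6), 5′ to 3′ on the strand of the gene. Capitals mark matches on either strand to GGCGCC (a GC-rich element bound by SMAD1/5, the transcription factors that BMP receptors activate), CAGAC (the SMAD box), CCGGAA (the core of ETS factor sites, which act after FGF and EGF signals) and TGANTCA (the AP-1 site), and the matches shown do not overlap each other. Adgrg1 is given at 2 starts (chr8:94976859-94977108 and chr8:94984149-94984398, plus strand), Adgrg3 at chr8:95017442-95017691 (plus strand), Adgrg6 at chr10:14545037-14545286 (minus strand), and Adgrl3 at the first of its 3 RefSeq starts (chr5:81020321-81020570, plus strand).
Adgrg1, first start: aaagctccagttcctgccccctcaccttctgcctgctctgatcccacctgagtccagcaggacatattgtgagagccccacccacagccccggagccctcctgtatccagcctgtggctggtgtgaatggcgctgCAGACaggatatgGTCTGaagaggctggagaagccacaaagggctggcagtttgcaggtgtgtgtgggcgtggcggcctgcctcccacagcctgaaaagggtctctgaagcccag
Adgrg1, second start: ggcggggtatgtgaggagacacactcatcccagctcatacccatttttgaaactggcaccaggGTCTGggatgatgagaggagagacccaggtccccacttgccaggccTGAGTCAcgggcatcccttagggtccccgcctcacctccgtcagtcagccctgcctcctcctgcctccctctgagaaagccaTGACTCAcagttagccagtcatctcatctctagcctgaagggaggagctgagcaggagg
Adgrg3: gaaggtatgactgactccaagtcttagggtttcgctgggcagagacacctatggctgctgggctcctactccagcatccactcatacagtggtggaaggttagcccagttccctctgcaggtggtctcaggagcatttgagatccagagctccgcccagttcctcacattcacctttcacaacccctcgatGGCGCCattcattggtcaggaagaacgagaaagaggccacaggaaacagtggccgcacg
Adgrg6: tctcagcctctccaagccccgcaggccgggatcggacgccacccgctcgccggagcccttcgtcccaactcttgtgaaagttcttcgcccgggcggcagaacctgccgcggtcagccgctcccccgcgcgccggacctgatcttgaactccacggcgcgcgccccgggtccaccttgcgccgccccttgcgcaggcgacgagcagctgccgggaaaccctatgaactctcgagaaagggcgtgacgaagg
Adgrl3: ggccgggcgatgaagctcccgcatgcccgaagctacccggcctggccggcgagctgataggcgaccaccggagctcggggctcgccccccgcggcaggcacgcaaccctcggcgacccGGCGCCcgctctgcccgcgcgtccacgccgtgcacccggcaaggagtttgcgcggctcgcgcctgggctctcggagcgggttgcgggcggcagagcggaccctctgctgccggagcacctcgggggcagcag
Both Adgrg1 windows held the SMAD box letters, and the second also held 2 AP-1 matches. Adgrg3 and the Adgrl3 window shown each had 1 GGCGCC, and the Adgrg6 window held none of the 4 motifs. The windows at the other Adgrl3 starts, not shown, held none of them either. RefSeq promoters were at hand for 11 of the 15 tested members (14 promoters), of which 5 held GGCGCC, 5 held CAGAC, 2 held CCGGAA and 1 held TGANTCA. Of 32851 mouse promoters of the same length, 9.59%, 42.2%, 12% and 6.75% held them. These shares were not matched for GC content. The median GC content of all promoters was 52.4%, and the windows of tested members with GGCGCC were at 55.2 to 81.6%. These matches describe the letters in a window and are not measured binding sites.

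Within the G subfamily, Adgrg1 was the most abundant adhesion GPCR and was about 3 times higher with bFGF/BMP4 than in either other group. Adgrg1 (GPR56; ENSMUSG00000031785; chromosome 8, 95701315 to 95742028 in GRCm39, plus strand) binds collagen III and transglutaminase 2 and is known in neural progenitors and oligodendrocyte precursors. Its level was 111, 123 and 93.1 FPKM with bFGF/EGF, 260, 348 and 393 FPKM with bFGF/BMP4 and 113, 97.2 and 149 FPKM with BMP4 alone. The bFGF/BMP4 libraries were all above the others, and the bFGF/EGF and BMP4 libraries overlapped. Adgrg1 was higher in bFGF/BMP4 than in bFGF/EGF (log2 fold change 1.60 ± 0.21 SE, adjusted p = 1.4e-04) and lower in BMP4 than in bFGF/BMP4 (-1.48 ± 0.21 SE, adjusted p = 6.4e-04). BMP4 vs bFGF/EGF gave 0.12 with a 95% interval of -0.34 to 0.58 (adjusted p = 0.65).

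Adgrg3 (GPR97; ENSMUSG00000060470), a receptor best known in blood granulocytes, starts 2291 bases after the end of Adgrg1 on the same strand. It was low, at 0.017, 0.0183 and 0.041 FPKM with bFGF/EGF, 0.937, 0.878 and 0.738 FPKM with bFGF/BMP4 and 0.312, 0.277 and 0.342 FPKM with BMP4 alone. None of the 3 groups overlapped. Behind these values stood 9, 272 and 105 fragments per group, which gives a ratio of 33.1 for bFGF/BMP4 to bFGF/EGF (95% interval 17.2 to 73.1) and 12 for BMP4 to bFGF/EGF (6.11 to 27.1); the intervals cover counting error only. On the log2(FPKM + 0.1) scale the differences were 2.92 ± 0.29 SE (adjusted p = 2.4e-05), 1.71 ± 0.29 SE (adjusted p = 6.0e-04) and, for BMP4 vs bFGF/BMP4, -1.21 ± 0.29 SE (adjusted p = 0.013). With a pseudocount of 1 none of these 3 reached a fold change of 2 (0.85, 0.35 and -0.50). Per 1000 FPKM of Adgrg1, Adgrg3 had 0.149 to 0.44 FPKM with bFGF/EGF, 1.88 to 3.61 with bFGF/BMP4 and 2.3 to 2.85 with BMP4 alone. This share was lower with bFGF/EGF, where it rests on 9 fragments, and overlapped between the BMP4 groups (mean 2.67 and 2.64).

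In contrast, Adgrg6 (GPR126; ENSMUSG00000039116; chromosome 10, 14277458 to 14421421 in GRCm39, minus strand) was the member with the largest fall from bFGF/EGF. It binds collagen IV, laminin-211 and the prion protein, raises cAMP and is needed for Schwann cells to myelinate. Its level was 4.12, 4.51 and 4.61 FPKM with bFGF/EGF, 0.428, 1.4 and 0.984 FPKM with bFGF/BMP4 and 0.645, 0.808 and 0.506 FPKM with BMP4 alone. Every library of both BMP4 groups was below every bFGF/EGF library, and the BMP4 groups overlapped. Adgrg6 fell by 2.25 ± 0.35 SE (adjusted p = 4.4e-04) in bFGF/BMP4 and by 2.60 ± 0.35 SE (adjusted p = 1.3e-04) in BMP4, and BMP4 vs bFGF/BMP4 gave -0.35 with an interval of -1.13 to 0.42.

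The latrophilins Adgrl1, Adgrl2 and Adgrl3 bind teneurins and FLRT proteins across cell contacts and are known at synapses. All 3 were lower in BMP4 than in bFGF/BMP4, and in bFGF/BMP4 vs bFGF/EGF Adgrl1 alone was called. Adgrl1 (chromosome 8, 84626588 to 84668583, plus strand) was at 31, 31.7 and 28.3 FPKM with bFGF/EGF, 76.4, 76.9 and 68.2 FPKM with bFGF/BMP4 and 34.9, 26.4 and 37.8 FPKM with BMP4 alone. As for Adgrg1, the bFGF/BMP4 libraries stood above the rest and the other groups overlapped. The log2 fold change of Adgrl1 was 1.28 ± 0.14 SE in bFGF/BMP4 vs bFGF/EGF (adjusted p = 5.0e-05) and -1.17 ± 0.14 SE in BMP4 vs bFGF/BMP4 (adjusted p = 2.5e-04), with 0.11 (-0.21 to 0.42) in BMP4 vs bFGF/EGF.

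Adgrl2 (chromosome 3, 148518957 to 148696229, minus strand) was at 17.9, 17.3 and 19.8 FPKM with bFGF/EGF, 7.74, 12.2 and 13.7 FPKM with bFGF/BMP4 and 3.23, 2.41 and 4.01 FPKM with BMP4 alone. The 3 groups did not overlap and were lowest with BMP4. Its difference was -0.74 ± 0.23 SE in bFGF/BMP4 vs bFGF/EGF (adjusted p = 0.023, under a fold change of 2), -2.50 ± 0.23 SE in BMP4 vs bFGF/EGF (adjusted p = 1.1e-05) and -1.76 ± 0.23 SE in BMP4 vs bFGF/BMP4 (adjusted p = 4.5e-04). Adgrl3 (chromosome 5, 81167344 to 81972980, plus strand), a gene studied in attention deficit hyperactivity disorder, was at 5.22, 4.29 and 5.61 FPKM with bFGF/EGF, 6.69, 9 and 9.02 FPKM with bFGF/BMP4 and 1.83, 1.43 and 2.56 FPKM with BMP4 alone. Its groups did not overlap either, with the bFGF/BMP4 libraries highest. Adgrl3 had the largest difference of any tested member in BMP4 vs bFGF/BMP4, -2.06 ± 0.22 SE (adjusted p = 1.3e-04). It was 0.69 ± 0.22 SE in bFGF/BMP4 vs bFGF/EGF (adjusted p = 0.024, under a fold change of 2) and -1.36 ± 0.22 SE in BMP4 vs bFGF/EGF (adjusted p = 4.6e-04).

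As a description, the ratio of Adgrl1 to Adgrl2 FPKM was 1.43 to 1.83 with bFGF/EGF, 4.97 to 9.88 with bFGF/BMP4 and 9.41 to 10.9 with BMP4 alone. The ratio of Adgrl1 to Adgrl3 was 5.05 to 7.39, 7.56 to 11.4 and 14.8 to 19.1. Both ratios were chosen after the values were seen and were not tested. In GENCODE vM39, part of the exon bases of Adgrl1 (12.7%) and of Adgrl3 (7.43%) is shared with a gene on the opposite strand. These genes are Gm10644 (at most 0.268 FPKM) and Gm16054 (at most 1.31 FPKM). Whether fragments were counted by strand is not given in the sources used here.

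**Figure D3:**
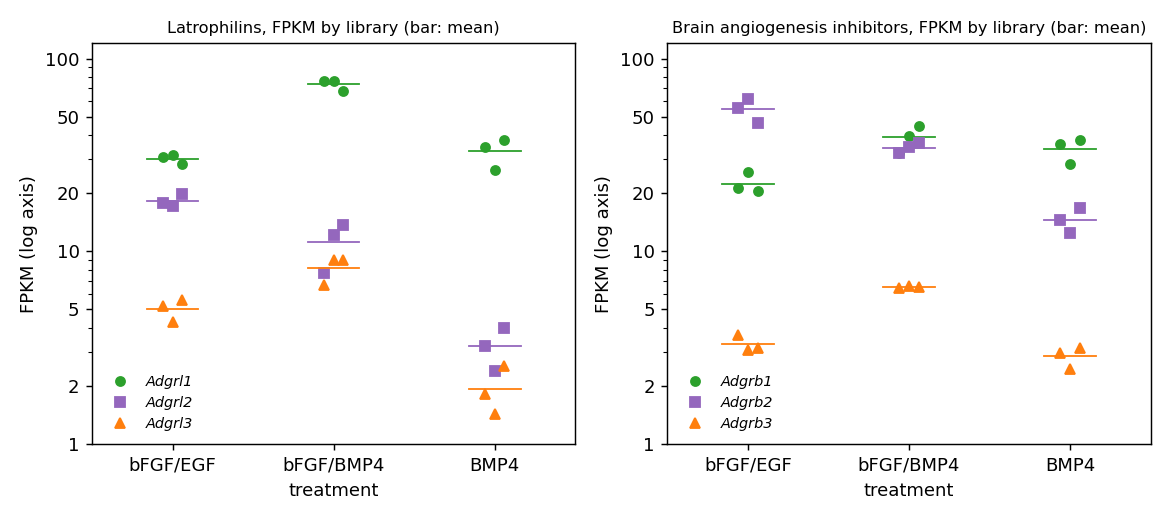
FPKM (log axis) of the latrophilins (left) and of the brain angiogenesis inhibitors (right) by treatment, with each point 1 library and each bar the mean of 3. Adgrb2 was above Adgrb1 in the bFGF/EGF libraries (46.4 to 61.6 against 20.6 to 25.7 FPKM) and below it in the BMP4 libraries (12.5 to 16.7 against 28.5 to 37.8 FPKM).

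The brain angiogenesis inhibitors Adgrb1, Adgrb2 and Adgrb3 carry thrombospondin repeats outside the cell, and Adgrb1 and Adgrb3 can bind ELMO inside it, an adaptor of the Rac activator DOCK. Adgrb2 was the member of this subfamily that was called in BMP4 vs bFGF/EGF, and Adgrb2 and Adgrb3 were called in BMP4 vs bFGF/BMP4, all lower. Adgrb1 (chromosome 15, 74388044 to 74461314, plus strand), also known for the uptake of dying cells, was at 21.2, 25.7 and 20.6 FPKM with bFGF/EGF, 32.4, 39.8 and 44.8 FPKM with bFGF/BMP4 and 36.1, 28.5 and 37.8 FPKM with BMP4 alone. Both BMP4 groups were above bFGF/EGF and overlapped each other. Its differences from bFGF/EGF, 0.78 ± 0.16 SE (adjusted p = 0.0025) and 0.59 ± 0.16 SE (adjusted p = 0.0099), were under a fold change of 2.

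Adgrb2 (chromosome 4, 129877901 to 129916437, plus strand) was at 55.4, 61.6 and 46.4 FPKM with bFGF/EGF, 32.2, 34.6 and 36.3 FPKM with bFGF/BMP4 and 14.6, 12.5 and 16.7 FPKM with BMP4 alone. The groups did not overlap. The difference was -0.66 ± 0.14 SE in bFGF/BMP4 vs bFGF/EGF (adjusted p = 0.0034, under a fold change of 2), -1.89 ± 0.14 SE in BMP4 vs bFGF/EGF (adjusted p = 2.8e-06) and -1.24 ± 0.14 SE in BMP4 vs bFGF/BMP4 (adjusted p = 1.9e-04). Within a library, the ratio of Adgrb1 to Adgrb2 was 0.383 to 0.445 with bFGF/EGF, 1.01 to 1.24 with bFGF/BMP4 and 2.27 to 2.47 with BMP4 alone, so the order of both receptors was opposite in bFGF/EGF and BMP4. The summed oligodendrocyte precursor markers given above were, like Adgrb2 and Adgrl2, lowest with BMP4 alone, and their part in both results was not tested. By mean, Adgrl3, Adgrb3, Adgrg6, Adgre5 and Adgrv1 were also lowest with BMP4 alone. The precursor sums overlapped between bFGF/EGF and bFGF/BMP4, where Adgrb2 and Adgrl2 did not. The ratio to Adgrb1, too, was picked with its values in view. Adgrb3 (chromosome 1, 25106526 to 25869270, minus strand), the receptor of C1q-like proteins at synapses, was at 3.69, 3.07 and 3.17 FPKM, 6.49, 6.62 and 6.52 FPKM, and 2.96, 2.47 and 3.15 FPKM in the same order of groups. The bFGF/BMP4 libraries were all above the others. Adgrb3 was lower in BMP4 than in bFGF/BMP4 (-1.17 ± 0.14 SE, adjusted p = 2.6e-04), and its difference of 0.97 ± 0.14 SE in bFGF/BMP4 vs bFGF/EGF (adjusted p = 3.1e-04) was just under a fold change of 2 and, without the first bFGF/EGF library, just over it (1.04).

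Of the A subfamily, Adgra1 rose and Adgra2 and Adgra3 were not called in any comparison. Adgra1 (GPR123), an orphan receptor of the nervous system, was at 2.4, 3.12 and 2.19 FPKM with bFGF/EGF, 3.93, 8.36 and 7.5 FPKM with bFGF/BMP4 and 8.53, 6.86 and 7.78 FPKM with BMP4 alone. Both BMP4 groups were above bFGF/EGF and overlapped each other. It was the only member with a group mean of at least 1 FPKM that was called higher in BMP4 vs bFGF/EGF (1.56 ± 0.26 SE, adjusted p = 6.4e-04), and it was 1.27 ± 0.26 SE in bFGF/BMP4 vs bFGF/EGF (adjusted p = 0.0027). Adgra2 (GPR124), with Reck a co-receptor for Wnt7 in brain vessels, was at 1.11, 1.59 and 1.1 FPKM, 1.21, 1.09 and 1 FPKM, and 1.55, 0.706 and 1.25 FPKM, with intervals that allowed -0.81 to 0.47 and -0.79 to 0.49 against bFGF/EGF. Adgra3 (GPR125) was at 12.8, 11.6 and 9.84 FPKM, 17.3, 18.5 and 20.1 FPKM, and 12.1, 9.86 and 13 FPKM. Its bFGF/BMP4 libraries were above all others, by 0.71 ± 0.14 SE from bFGF/EGF (adjusted p = 0.0022), a fold change under 2.

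Adgre5 and Adgrv1 were lower than in bFGF/EGF with either BMP4 treatment. Adgre5 (CD97), a receptor of leukocytes and other cells that binds CD55, was at 2.13, 2.17 and 2.23 FPKM with bFGF/EGF, 0.53, 0.954 and 0.905 FPKM with bFGF/BMP4 and 0.885, 0.871 and 0.371 FPKM with BMP4 alone. Every bFGF/EGF library was above the rest, with differences of -1.38 ± 0.32 SE (adjusted p = 0.0056) and -1.57 ± 0.32 SE (adjusted p = 0.0023). These values are uncertain, since 48.1% of the exon bases of Adgre5 in GENCODE vM39 lie in Ddx39a, an RNA helicase gene on the opposite strand. The deposited FPKM imply a length of 3757 bases for Adgre5, where this annotation has 6645. The share of overlap behind the deposited values is therefore not known. Ddx39a fell in the same comparisons, from 16.1 to 22.9 FPKM in the bFGF/EGF to 3.79 to 6.08 FPKM with bFGF/BMP4 and 3.13 to 5.13 FPKM with BMP4 alone, and its part in the Adgre5 values was not tested. With a pseudocount of 1, Adgre5 was no longer called (-0.83 and -0.91).

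Adgrv1, the very large receptor mutated in Usher syndrome, which links the stereocilia of hair cells, had 0.696 to 0.876 FPKM with bFGF/EGF, 0.175 to 0.434 FPKM with bFGF/BMP4 and 0.122 to 0.229 FPKM with BMP4 alone. The bFGF/EGF libraries were above both other groups, which overlapped, and Adgrv1 fell by 1.22 ± 0.33 SE (adjusted p = 0.012) and by 1.71 ± 0.33 SE (adjusted p = 0.0015). The first of these was under a fold change of 2 without the first bFGF/BMP4 library (-0.97), and both were with a pseudocount of 1 (-0.48 and -0.61).

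Adgrf2 and Adgrf4 of the F subfamily had low counts that were highest with BMP4. Adgrf2 (GPR111) had 12 fragments with bFGF/EGF, 31 with bFGF/BMP4 and 64 with BMP4 alone, the last made of 41, 18 and 5, and it was not called in any comparison (1.23 ± 0.54 SE in BMP4 vs bFGF/EGF, adjusted p = 0.08). It was called there without the third BMP4 library (1.77). Adgrf4 (GPR115) had 7, 7 and 24 fragments in the 3 groups.

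The other members were close to or under the limit of detection. In 9 of the 13 members that were not tested, no library had more than 3 fragments by the numbers found: Adgrd2-ps, Adgre1, Adgre4, Adgrf1, Adgrf5, Adgrg4, Adgrg5, Adgrg7 and Adgrl4. For Adgre4 (at most 0.0706 FPKM) this is uncertain. Its numbers imply a length of 873 bases, where GENCODE vM39 has 3613, so they may be too low. Adgre1 (the macrophage antigen F4/80) and Adgrg4 were at 0 in all 9 libraries, as were the microglial markers Itgam and C1qa. Other markers of that list were not at 0. The 8 microglia and macrophage markers summed to 0.411 to 0.876, 0.412 to 0.54 and 1.49 to 1.75 FPKM in the 3 groups. Tmem119 had a mean of 1.34 FPKM with BMP4 alone, and P2ry12 had 0.561 FPKM with bFGF/EGF. Adgrl4 and Adgrf5, which are abundant in blood vessels, reached at most 1 and 3 fragments in a library, and the endothelial marker Cldn5 was at 0 throughout. The summed FPKM of the 6 endothelial markers was 0.186 to 0.33, 1.14 to 1.71 and 2.87 to 4.18 in the 3 groups, most of it Kdr. Adgrd1 and Adgrg2 had at most 9 and 7 fragments in a library.

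Celsr1, Celsr2 and Celsr3, the cadherin-type adhesion GPCRs that align the polarity of epithelial and ependymal cells, are given beside the Adgr members. Celsr1 was at 0.258, 0.196 and 0.0681 FPKM with bFGF/EGF, 1.28, 1.39 and 1.57 FPKM with bFGF/BMP4 and 11.6, 5.16 and 12.2 FPKM with BMP4 alone. Its groups did not overlap, and its log2 fold changes were 2.53 ± 0.37 SE, 5.13 ± 0.37 SE and 2.60 ± 0.37 SE (adjusted p = 3.2e-04, 2.3e-06 and 7.3e-04). Celsr3 was higher in BMP4 than in both other groups (1.00 ± 0.29 SE and 1.20 ± 0.29 SE, adjusted p = 0.014 for both), and Celsr2 was not called. Of the 9 genes of the Celsr and planar polarity list, 3 were higher in bFGF/BMP4 vs bFGF/EGF, 5 in BMP4 vs bFGF/EGF and 3 in BMP4 vs bFGF/BMP4, beside 16.5%, 21.3% and 8.41% of all genes, and none was called lower. By the adjusted p-value alone, Vangl2 was lower in both comparisons with bFGF/EGF (-0.79 ± 0.13 SE, adjusted p = 5.5e-04, and -0.86 ± 0.13 SE, adjusted p = 2.3e-04). By the same rule Vangl1 was lower in bFGF/BMP4 vs bFGF/EGF. In BMP4 vs bFGF/BMP4, Prickle1 was lower and Vangl1 higher by it. The 5 ependymal markers summed to 8.23 to 12.6, 11.1 to 11.7 and 57.8 to 69.9 FPKM in the 3 groups, and their part in the Celsr values was not tested.

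The ligands and partners of the receptors changed in both directions. Of 34 in the list, 30 were tested, and 7 were higher and 8 lower in bFGF/BMP4 vs bFGF/EGF, 8 higher and 8 lower in BMP4 vs bFGF/EGF, and 8 higher and 2 lower in BMP4 vs bFGF/BMP4, with medians of -0.27, 0.34 and 0.10. The shares over all genes were 16.5% higher and 14.1% lower, 21.3% and 15.4%, and 8.41% and 5.14%. C1ql1, a secreted C1q-like ligand of Adgrb3, had 0.599, 0.944 and 0.346 FPKM with bFGF/EGF, 0.296, 0.487 and 0.0923 FPKM with bFGF/BMP4 and 200, 212 and 180 FPKM with BMP4 alone. The BMP4 libraries thus stood far above all others, by 8.16 ± 0.40 SE from bFGF/EGF (adjusted p = 2.1e-07) and 9.12 ± 0.40 SE from bFGF/BMP4 (adjusted p = 1.2e-06), while Adgrb3 was lower in BMP4 than in bFGF/BMP4. C1ql3, of the same ligand family, was at 0.844 ± 0.0075, 0.374 ± 0.2 and 3.86 ± 1.3 FPKM (SD, n = 3) and was also higher in BMP4 than in both other groups (2.02 ± 0.35 SE, adjusted p = 7.0e-04, and 3.11 ± 0.35 SE, adjusted p = 1.6e-04).

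Further partners are named here after their values were seen. Rtn4rl1, of the Nogo receptor family that binds Adgrb1, was at 4.49 ± 0.045, 25.5 ± 3.1 and 5.25 ± 0.79 FPKM (SD, n = 3), a rise of 2.47 ± 0.14 SE in bFGF/BMP4 vs bFGF/EGF (adjusted p = 6.8e-07). It was highest in bFGF/BMP4 and lower in BMP4 than in bFGF/BMP4 (-2.26 ± 0.14 SE, adjusted p = 6.4e-06). Prnp, the prion protein that binds Adgrg6, rose by 2.55 ± 0.16 SE in BMP4 vs bFGF/EGF (adjusted p = 8.2e-07), from 77.4 ± 11 to 455 ± 80 FPKM (SD, n = 3). The other ligand genes of Adgrg6 fell in part, with Col4a1 lower than in bFGF/EGF with either BMP4 treatment (-3.43 ± 0.29 SE, adjusted p = 1.0e-05, and -2.05 ± 0.29 SE, adjusted p = 2.1e-04). Of the laminin genes in the list, Lama2 was higher in both (3.61 ± 0.22 SE, adjusted p = 9.9e-07, and 3.07 ± 0.22 SE, adjusted p = 2.0e-06). Lamb1 was lower in both (-3.17 ± 0.27 SE, adjusted p = 9.2e-06, and -3.24 ± 0.27 SE, adjusted p = 5.1e-06). Lamc1 was lower in BMP4 vs bFGF/EGF (-1.59 ± 0.17 SE, adjusted p = 2.8e-05). In bFGF/BMP4 vs bFGF/EGF, Lamc1 was at -0.75 ± 0.17 SE (adjusted p = 0.0043), under a fold change of 2. Wnt7a and Wnt7b, which signal through Adgra2, were lower than in bFGF/EGF with either BMP4 treatment (-2.77 ± 0.28 SE and -1.37 ± 0.28 SE for Wnt7a, adjusted p = 2.8e-05 and 0.002).

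**Figure D4:**
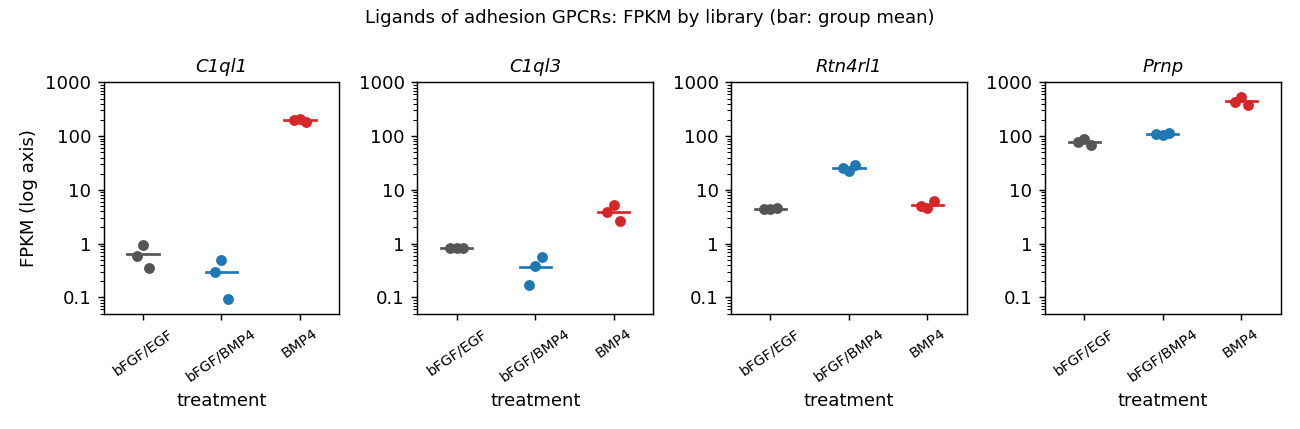
FPKM (log axis) of 4 ligands or partners of adhesion GPCRs by treatment, with each point 1 library and each bar the mean of 3. C1ql1 was at 180 to 212 FPKM with BMP4 alone and under 1 FPKM in all others, and Rtn4rl1 was highest in the bFGF/BMP4 libraries (22.4 to 28.6 FPKM).

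All 30 listed effectors of the receptors were tested. Of these, 6 were higher and 3 lower in bFGF/BMP4 vs bFGF/EGF, and 7 higher and 5 lower in BMP4 vs bFGF/EGF. In BMP4 vs bFGF/BMP4, 0 were higher and 1 lower by limma, and 0 were higher by limma-voom. The 2 that were higher there at an unadjusted p of 0.05 also passed the adjusted p, under a fold change of 2. The medians were 0.06, -0.17 and -0.23 in the 3 comparisons. Set beside the shares over all genes just given for the ligands, the higher effectors were near them in the first 2 comparisons. The lower one was Gnao1, a G protein subunit of the Gi/o class, at 12.3, 13 and 13.1 FPKM with bFGF/EGF, 63.6, 54.9 and 55.8 FPKM with bFGF/BMP4 and 28.2, 25.4 and 29.3 FPKM with BMP4 alone. Its 3 groups did not overlap, and BMP4 vs bFGF/BMP4 gave -1.07 ± 0.11 SE (adjusted p = 7.4e-05). Gnai2, another subunit of this class, was at 142 ± 20, 177 ± 11 and 329 ± 27 FPKM (SD, n = 3) and rose by 1.21 ± 0.14 SE in BMP4 vs bFGF/EGF (adjusted p = 5.3e-05). In BMP4 vs bFGF/BMP4, Gnai2 was at 0.89 ± 0.14 SE (adjusted p = 0.0014) and Adcy2 at 0.59 ± 0.19 SE (adjusted p = 0.049), both under a fold change of 2. By the adjusted p-value alone, Gnai1, Dock1 and Adcy9 were lower there beside Gnao1. In the ELMO, DOCK and Rac branch, through which Adgrb1 acts, none of 5 was called higher, and Elmo1 was lower in both BMP4 groups (-1.17 ± 0.25 SE and -1.47 ± 0.25 SE, adjusted p = 0.0034 and 7.1e-04). Dock1 was lower in BMP4 vs bFGF/EGF (-1.40 ± 0.16 SE, adjusted p = 5.4e-05), and Elmo2 was at 0.89 ± 0.13 SE in bFGF/BMP4 vs bFGF/EGF (adjusted p = 3.0e-04), under a fold change of 2. None of the 3 genes of the Gq class was called. Elmo1, Elmo2, Dock1, Gnai1, Adcy2 and Adcy9 were singled out after their values were seen.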

How the data were processed

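Total RNA of 9 libraries was sequenced. Per the labels, the authors used fastp 0.19.7, HISAT2 2.0.5 and featureCounts 1.5.0-p3 with the mm39 genome, and the paper's methods name DESeq2 for differential expression. The authors deposited FPKM values; the program that computed them, the annotation release and the strand setting are not given in the sources used here. The divisor behind each FPKM column was 0.9191 to 1.072 times the fragments on genes found from the values. Whole fragment numbers, in general the smallest that fit, were found for all 30860 genes above 0 (within 0.1 of a whole number). Where the true numbers of a gene share a divisor, those found can be too low. A gene with at most 3 in each library of a group was taken as not detected.

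Genes were annotated with GENCODE vM39 (GRCm39, 54749 of 55414 Ensembl identifiers found). The gene length implied by the FPKM equalled the exon length in this annotation for 10.9% of the genes compared. limma 3.58.1 in R 4.3.3 was fitted with a trend to log2(FPKM + 0.1) of the 20207 genes with a mean of at least 0.1 FPKM, with all 9 libraries, Benjamini-Hochberg adjustment over all genes and the thresholds of 0.05 and a fold change of 2. The code was tested on simulated data. Python 3.11.15, pandas 2.3.3, numpy 2.4.6, scipy 1.17.1 (exact binomial intervals of count ratios) and matplotlib 3.10.9 were used for the rest.

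Members with a group mean of at least 1 FPKM are given by library, the others by range and count. From each list of related genes the 2 with the largest change among those called in any comparison are named, first by BMP4 vs bFGF/BMP4. The members, lists and tests were chosen with earlier results of these data known. Alternatives were a pseudocount of 1, no filter, a mean of at least 1 FPKM, the TPM scale, quantile normalization, a fit of 2 groups only, limma-voom on the recovered fragments, the replicate number as a block, no fold threshold, and each library left out. Protein sequences were not used here, and a few genes of the family and its lists are not reported here.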

Additional observations from a re-analysis of the deposited data

How the results depend on the processing

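Of 22 calls of members, 14 held under every alternative run that kept the fold threshold. Of 23 uncalled values, 21 stayed uncalled in those runs, and 0 called values reversed. A pseudocount of 1 left 1 member lower in bFGF/BMP4 vs bFGF/EGF and 1 higher in BMP4 vs bFGF/EGF, and it ended the calls of Adgre5, Adgrg3 and Adgrv1 in the comparisons where they were called, and that of Adgrb3 in BMP4 vs bFGF/BMP4 (-0.97). Low genes shrink on that scale by construction. A mean of at least 1 FPKM left 12 members tested, with 1 higher in BMP4 vs bFGF/EGF. Without a filter 26 members were tested and 1 was higher in BMP4 vs bFGF/BMP4. With no fold threshold, 8 members were higher and 5 lower in bFGF/BMP4 vs bFGF/EGF. The numbers were 3 and 6 in BMP4 vs bFGF/EGF, and 0 and 8 in BMP4 vs bFGF/BMP4. That rule thus called values that the main rule left uncalled. With 1 library left out at a time, the counts of higher and lower members were 4 to 5 and 2 to 3 in bFGF/BMP4 vs bFGF/EGF, 2 to 3 and 6 in BMP4 vs bFGF/EGF, and 0 and 7 in BMP4 vs bFGF/BMP4. Quantile normalization moved the median of all genes in BMP4 vs bFGF/EGF from 0.1 to -0.035, and it changed no call of a member.

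The groups share replicate numbers. Over genes, the deviations of same-numbered libraries from their group means correlated at -0.0839 to 0.125. Libraries of unlike number gave -0.154 to 0.0814. With 3 libraries per group, these values cannot tell whether same-numbered libraries came from a shared isolation. With the replicate block the counts were 4 higher and 3 lower, 2 and 6, and 0 and 7 in the 3 comparisons, and no call changed. The values of Adgrg3, Adgrf2 and Adgrf4 rest on few fragments, and the exon overlap of Adgre5 with Ddx39a could not be resolved from FPKM.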
